A study of Mus musculus with 12 samples.

Results

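Nascent RNA in mouse liver late in the light phase (ZT8) was compared with that late in the dark phase (ZT20), the point on the opposite side of the daily cycle. ZT, zeitgeber time, is the number of hours since the lights came on. The 4 libraries compared, 2 per time point, were part of a set of 12 libraries covering 6 time points, and the 8 others served only as a description beside the comparison. All mice were male C57BL/6 adults aged 3 to 6 months, for which no transgene, mutation or drug is given, held under 12 hr of light and 12 hr of dark for 2 weeks or more, so light, feeding time and the internal clock all differed between ZT8 and ZT20 and cannot be told apart. Nuclei were purified from whole liver, lysed in urea and detergent, and the RNA still attached to chromatin was freed of polyadenylated RNA and sequenced (Nascent-Seq). Each of the 4 libraries had been run in 2 lanes and each of the other 8 in 1 lane. A value is the read coverage of the exons of a gene symbol per base pair (rpbp), in which reads from both strands are pooled. Of 21490 symbols, 5339 symbols (at 4222 loci that do not overlap) exceeded 6 rpbp in at least 1 of the 4 libraries and were tested. Many symbols lay close to that limit, with 496 symbols whose highest value was 5.5 to 6 rpbp and 433 at 6.1 to 6.5 rpbp.

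The mammalian clock is a loop of transcription factors. BMAL1 (the product of Arntl), paired with CLOCK or NPAS2, binds E-boxes and activates the Per and Cry genes, the REV-ERB genes Nr1d1 and Nr1d2, and the PAR bZIP genes Dbp, Tef and Hlf. PER and CRY proteins repress that activation, REV-ERB proteins compete with ROR receptors at ROR elements (ROREs) to repress Arntl, Npas2, Cry1 and Nfil3, and PAR bZIP proteins and the repressor NFIL3 share the D-box. Mice feed mainly in the dark, and many liver enzymes of lipid, amino acid and drug metabolism are known to follow the clock or the meals.

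To show the kind of DNA that lies at these genes, promoters in the RefSeq annotation of GRCm38.p6 (250 bases before to 50 bases after each start site) were searched on both strands for the E-box CACGTG, the D-box TTATGNAA and the RORE TAGGTCA, none of which contains another. Of the 12 clock list genes that differed between ZT8 and ZT20 by the test used here, promoters are printed for the 5 with a motif found. The search gave no motif for the others, which were Nr1d1, Nr1d2, Dbp, Npas2, Inmt, Upp2 and Por. The lack of a match speaks only for these exact letters in this window, and it does not show that no factor binds. Sequences run 5′ to 3′ on the strand of the gene, with the motif in capitals. Tef, higher at ZT8, has an E-box in both of 2 promoters (chr15:81802423-81802672 and chr15:81811164-81811413, plus strand). Per3, higher at ZT8, has 2 D-boxes, starting 205 and 158 bases before the start site (chr4:151044666-151044915, minus strand). Cry1, higher at ZT20, has an E-box 60 bases before the start site (chr10:85185055-85185304, minus strand). Nfil3, higher at ZT20, has a RORE that reads TGACCTA on the strand of the gene and starts 12 bases before the start site (chr13:52981040-52981289, minus strand). For Arntl, higher at ZT20, the RORE lies just past the start site, so only 27 bases are shown (chr7:113207531-113207557, plus strand).
Tef, first promoter: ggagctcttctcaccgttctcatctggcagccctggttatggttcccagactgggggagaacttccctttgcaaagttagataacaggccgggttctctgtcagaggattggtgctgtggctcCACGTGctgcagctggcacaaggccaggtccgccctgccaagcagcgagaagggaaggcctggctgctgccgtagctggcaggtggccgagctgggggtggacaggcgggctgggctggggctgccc
Tef, second promoter: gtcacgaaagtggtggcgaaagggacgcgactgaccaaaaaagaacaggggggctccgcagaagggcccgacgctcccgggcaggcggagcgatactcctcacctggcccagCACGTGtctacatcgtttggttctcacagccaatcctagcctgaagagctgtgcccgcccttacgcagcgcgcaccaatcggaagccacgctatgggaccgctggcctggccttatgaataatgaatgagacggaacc
Per3: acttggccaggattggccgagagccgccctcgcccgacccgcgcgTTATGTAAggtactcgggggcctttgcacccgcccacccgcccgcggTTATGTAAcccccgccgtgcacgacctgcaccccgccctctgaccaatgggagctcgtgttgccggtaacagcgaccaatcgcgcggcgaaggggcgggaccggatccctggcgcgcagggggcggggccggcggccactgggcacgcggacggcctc
Cry1: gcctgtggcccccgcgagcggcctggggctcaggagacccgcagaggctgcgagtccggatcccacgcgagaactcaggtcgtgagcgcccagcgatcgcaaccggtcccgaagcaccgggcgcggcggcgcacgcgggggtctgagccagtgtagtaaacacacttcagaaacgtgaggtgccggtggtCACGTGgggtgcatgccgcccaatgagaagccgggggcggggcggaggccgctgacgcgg
Nfil3: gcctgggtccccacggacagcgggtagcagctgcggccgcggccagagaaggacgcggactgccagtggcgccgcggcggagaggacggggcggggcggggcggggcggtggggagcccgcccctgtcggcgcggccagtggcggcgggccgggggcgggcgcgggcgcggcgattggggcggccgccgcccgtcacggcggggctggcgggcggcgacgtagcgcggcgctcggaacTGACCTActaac
Arntl: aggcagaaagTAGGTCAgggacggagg

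Across all 32851 RefSeq promoters, 7.15% held the E-box, 3.38% the D-box and 2.61% the RORE. Of the 28 symbols called higher at ZT8, 17 symbols matched a RefSeq gene, with 21 promoters: 3 promoters held the E-box (those of Tef and Acot4), 3 the D-box (Per3, Cyp2a5 and Nrg4), and 0 the RORE. Of the 66 symbols called higher at ZT20, 41 symbols matched, with 53 promoters: 4 promoters held the E-box (Cry1, Cbs, Tjp3 and Mical2, the RefSeq name of the called symbol mKIAA0750), 1 the D-box (Ddc) and 6 the RORE (Arntl, Nfil3, Abcb11, Bhmt, Slc45a3 and Tjp3). The longer symbol Mical2 of the table, which shares the start of mKIAA0750, was not called itself (log2 difference −1.19, adjusted p = 0.0616). A match gives only the letters within this window and does not show that a factor binds there. These promoters were chosen by calls on the same libraries, so the shares are a description.

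A symbol was called when limma gave an adjusted p under 0.05 (Benjamini-Hochberg over all 5339 symbols, on log2(rpbp + 1)) and both ZT8 values lay on the same side of both ZT20 values. By this rule 94 symbols at 77 loci (1.76% of those tested) were called. Of these, 66 symbols were called higher at ZT20 (1.24%, at 54 loci) and 28 higher at ZT8 (0.524%, at 23 loci). The size of the called differences was alike in both directions, with a median absolute log2 difference of 2.01 for those higher at ZT20 and 1.95 for those higher at ZT8, beside 0.22 over all tested symbols. The smallest called difference was 1.34 on the log2 scale, and the smallest gap between the nearest ZT8 and ZT20 values was 1.19. Just outside the limit lay BC048951 (log2 difference −1.54, adjusted p = 0.0502) and Ecgf1 (−1.43, adjusted p = 0.0514). A second count that does not rest on an estimated spread took symbols whose groups did not overlap and whose mean log2 values differed by more than 1 (2-fold). It held 120 symbols higher at ZT8 (2.25%) and 192 higher at ZT20 (3.6%), all 94 called symbols among them. Lack of overlap alone, at any size of difference, was common: it held for 2107 of the 5339 tested symbols. Where it is stated below for a gene that was not called, it does not by itself mark a difference. An unadjusted limma p under 0.05, the count given beside lists with few calls, was reached by 292 symbols higher at ZT8 (5.47%) and 413 higher at ZT20 (7.74%). The shares given here over all tested symbols stand beside each list count below. At such shares a short list holds few calls or none, so 0 calls does not mark it as unchanged. Throughout, a log2 difference is ZT8 minus ZT20 on log2(rpbp + 1), which understates the change of genes with low signal, and a fold is the larger mean in rpbp over the smaller. With ZT8 replicate 1 or ZT8 replicate 2 left out, limma called 0 symbols (980 and 799 symbols had an unadjusted p under 0.05), and it called 29 without ZT20 replicate 1 and 34 without ZT20 replicate 2.

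**Figure D1:**
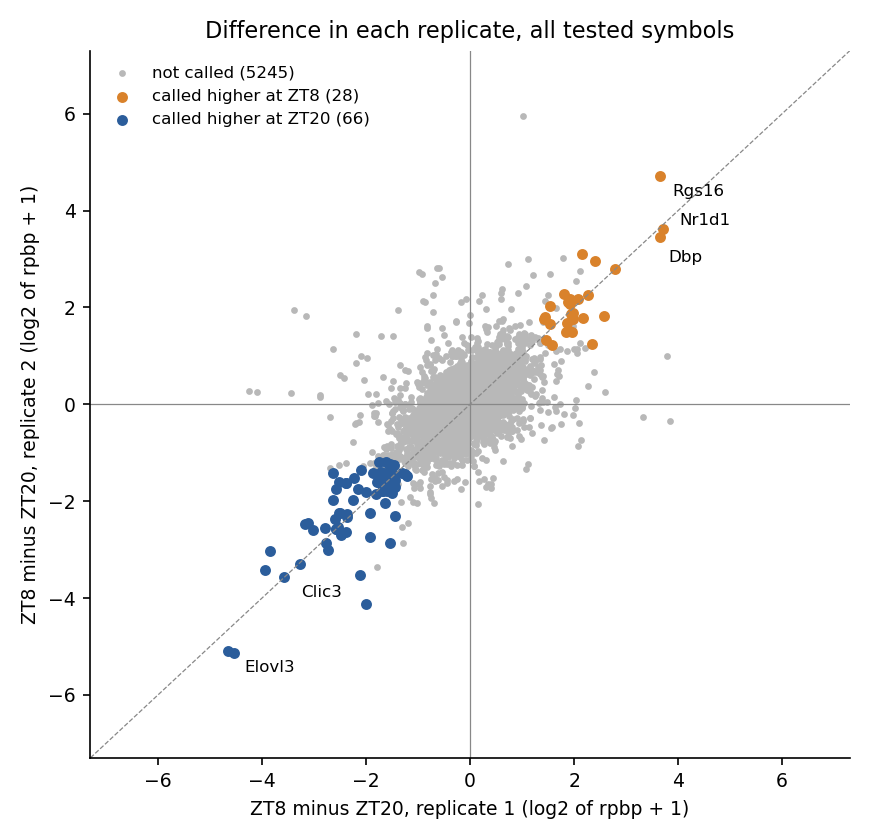
The log2 difference ZT8 minus ZT20 on log2(rpbp + 1) in replicate 1 (x axis) is plotted against that in replicate 2 (y axis) for all 5339 tested symbols, with called symbols in colour and the dashed line where both are equal. The 28 symbols called higher at ZT8 lie above 0 in both replicates and the 66 called higher at ZT20 lie below 0 in both, with Rgs16 and Elovl3 near the ends.

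The 4 libraries summed to between 123655 and 160545 rpbp, and the 20 highest symbols held 20.7% to 37.1% of the sum. Replicates of ZT8 differed by more than 2-fold for 6.54% of tested symbols and replicates of ZT20 for 2.12%, beside 8.15% to 11.1% for the 4 pairs across the time points. Exon GC content was known for 98.0% of tested symbols. Symbols were put into 20 bins of GC content, and between the bottom and the top bin the median deviation from the mean of the 4 libraries (log2) changed by 0.30 in ZT8 replicate 1, −0.66 in ZT8 replicate 2, 0.42 in ZT20 replicate 1 and −0.07 in ZT20 replicate 2. Median exon GC was 50.03% for symbols called higher at ZT8, 52.7% for those called higher at ZT20 and 49.0% for all tested. With that trend removed, 74 of the 88 called symbols that had a GC value were called. All 88 kept their direction, which says little, since the smallest called log2 difference, 1.34, exceeded the size of each change between bins.

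The clock lists, 24 tested genes in all, held 12 called genes, 8 higher at ZT8 and 4 higher at ZT20. Over all tested symbols the shares called were 0.524% and 1.24%. The activators had more signal at ZT20. Arntl (chr7:120350979-120457636 in mm9, plus strand) gave 0.9 and 0.7 rpbp at ZT8 and 10.4 and 9.1 rpbp at ZT20, a 12.2-fold difference of the means (log2 difference −2.58, SE 0.23, limma adjusted p = 0.00494). Its partner Npas2 (chr1:39251057-39419031) was at 0.0 and 0.1 rpbp at ZT8 and at 8.0 and 5.1 rpbp at ZT20 (log2 difference −2.82, SE 0.27, adjusted p = 0.00584), and no fold is given because a ZT8 library was listed at 0. Clock had 6.4 and 8.3 rpbp at ZT8 and 15.4 and 16.2 rpbp at ZT20, without overlap, and did not pass the test (log2 difference −1.02, SE 0.24, adjusted p = 0.11), though its adjusted p was 0.0392 with the GC trend removed. The signal of Arntl and Npas2 was thus under 1 rpbp in both ZT8 libraries, while that of Clock was above 6 rpbp in all 4.

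The repressors did not move together: 3 of 8 tested members were called higher at ZT8, 1 was called higher at ZT20 and 4 were not called. The REV-ERB genes had more signal at ZT8. Nr1d1 (chr11:98629249-98636556, minus strand) gave 40.6 and 28.3 rpbp at ZT8 against 2.2 and 1.4 rpbp at ZT20, 19.1-fold higher at ZT8 (log2 difference 3.66, SE 0.28, adjusted p = 0.00494). Nr1d2 gave 11.4 and 17.0 rpbp at ZT8 against 0.8 and 1.6 rpbp at ZT20, 11.8-fold higher at ZT8 (log2 difference 2.79, SE 0.30, adjusted p = 0.0109). In both, each ZT8 value was several times each ZT20 value.

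Among the Period genes only Per3 passed the test in these 4 libraries. Per3 (chr4:150377764-150418731) had 21.1 and 21.6 rpbp at ZT8 and 3.6 and 3.7 rpbp at ZT20, a 5.85-fold difference with replicates that nearly coincided (log2 difference 2.26, SE 0.22, adjusted p = 0.00584). Per1 had 8.2 and 5.5 rpbp at ZT8 and 4.8 and 7.6 rpbp at ZT20, and Per2 had 11.7 and 14.9 rpbp and 21.1 and 13.1 rpbp, and in both the groups overlapped. Their adjusted p-values were 0.949 and 0.807. Between the points compared, at ZT12, Per1 gave 16.8 and 30.4 rpbp. Per2 gave 25.4 and 35.0 rpbp at ZT12 and 34.2 and 22.6 rpbp at ZT16, which overlapped. Since strands are pooled in the table, sense and antisense RNA at the Per2 locus cannot be told apart, and its time of highest sense signal is not given by these values.

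The cryptochromes differed from each other. Cry1 (chr10:84594445-84647799), a repressor of the loop, gave 1.2 and 1.3 rpbp at ZT8 against 11.3 and 13.9 rpbp at ZT20, 10.1-fold higher at ZT20 (log2 difference −2.59, SE 0.23, adjusted p = 0.00494). Cry2 gave 14.8 and 10.1 rpbp at ZT8 and 12.8 and 12.5 rpbp at ZT20 (adjusted p = 0.986), and Bhlhb2 (the gene of the repressor DEC1) gave 20.8 and 34.3 rpbp and 29.1 and 24.7 rpbp (adjusted p = 0.999). In both the ZT20 values fell between the ZT8 values.

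Among the clock-driven factors that read the D-box, Dbp and Tef went one way, Nfil3 went the other, and Hlf was not called. The activators Dbp and Tef had more signal at ZT8. Dbp (chr7:52960602-52965521) gave 50.5 and 42.6 rpbp at ZT8 against 3.1 and 3.0 rpbp at ZT20, 15.3-fold higher (log2 difference 3.55, SE 0.23, adjusted p = 0.00494), and Tef (chr15:81633247-81657293) gave 46.9 and 49.7 rpbp against 11.6 and 10.3 rpbp, 4.41-fold higher (2.05, SE 0.22, adjusted p = 0.0109). The third PAR bZIP gene, Hlf, had 12.4 and 8.6 rpbp at ZT8 and 8.5 and 8.6 rpbp at ZT20 (adjusted p = 0.837). The repressor Nfil3 (chr13:53062578-53076408) had 2.6 and 3.3 rpbp at ZT8 and 10.9 and 12.2 rpbp at ZT20, 3.92-fold higher at ZT20 (−1.67, SE 0.23, adjusted p = 0.0243), and its adjusted p was 0.0619 with the GC trend removed. The ROR receptor gene Rora had 8.5 and 7.3 rpbp at ZT8 and 9.7 and 10.7 rpbp at ZT20 (adjusted p = 0.683).

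Of 7 tested clock output genes, 3 were called higher at ZT8 and 0 higher at ZT20. Inmt, an N-methyltransferase, gave 112.5 and 121.5 rpbp at ZT8 and 29.7 and 27.3 rpbp at ZT20 (4.11-fold, adjusted p = 0.0113). Upp2, a uridine phosphorylase, gave 88.3 and 98.2 rpbp and 18.8 and 27.8 rpbp (4-fold, adjusted p = 0.0241). Por, the reductase that supplies electrons to the microsomal P450 enzymes, gave 26.3 and 22.9 rpbp and 5.9 and 6.1 rpbp (4.1-fold, adjusted p = 0.0155). Alas1, the first enzyme of heme synthesis, had 83.3 and 157.9 rpbp at ZT8 and 25.7 and 39.0 rpbp at ZT20 without overlap, with an adjusted p of 0.0769 beside the wide spread at ZT8. Pbef1 (Nampt, the NAD salvage enzyme) had 8.8 and 13.2 rpbp and 4.2 and 5.4 rpbp (adjusted p = 0.148). Tspan4 (8.7 and 6.8 rpbp, then 4.9 and 5.2 rpbp) and Ccrn4l, the gene of the deadenylase Nocturnin (7.0 and 8.3 rpbp, then 13.3 and 10.6 rpbp), had adjusted p-values of 0.417 and 0.375. Ccrn4l, with 38.9 and 35.3 rpbp at ZT12, was another gene whose highest mean fell between the points compared.

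**Figure D2:**
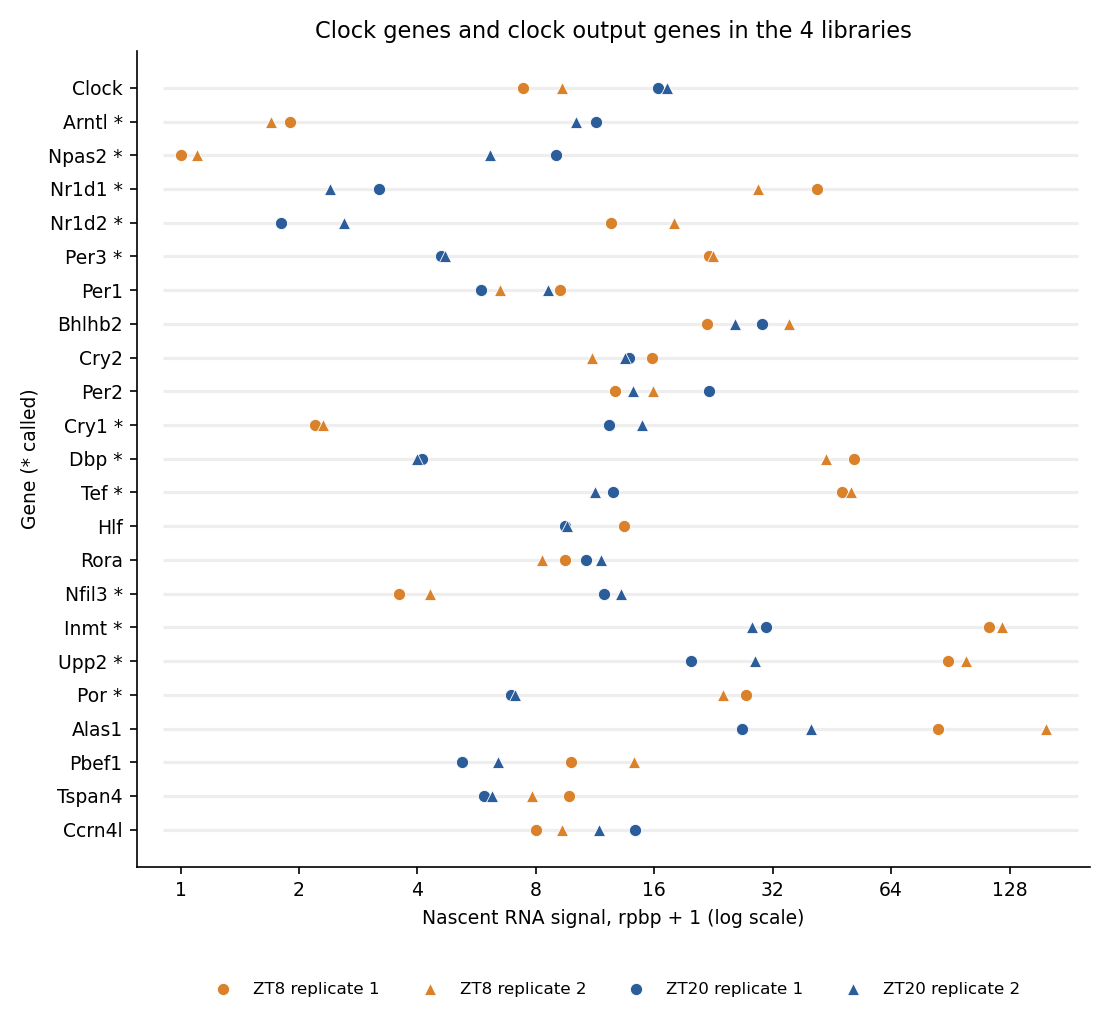
Signal of genes of the clock lists in the 4 libraries (x axis, rpbp + 1 on a log scale; orange ZT8, blue ZT20; circles replicate 1, triangles replicate 2; * called). From top to bottom stand the activators, the repressors, the bZIP factors and Rora, and the output genes. Arntl, Npas2, Cry1 and Nfil3 have both ZT8 points far to the left of the ZT20 points, and Nr1d1, Nr1d2, Per3, Dbp, Tef, Inmt, Upp2 and Por far to the right.

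The largest difference toward ZT8 among called symbols was not that of a clock gene. Rgs16 (chr1:155587504-155592596), a regulator that shortens G protein signalling, had 21.5 and 41.2 rpbp at ZT8 and 0.8 and 0.6 rpbp at ZT20, 44.8-fold higher (log2 difference 4.18, SE 0.34, adjusted p = 0.00494). In the other 8 libraries it stayed between 0.3 and 5.8 rpbp, so its signal was high at ZT8 alone among the 6 time points. The Riken transcript E430004N04Rik (5.3 and 7.5 rpbp against 0.2 and 0.1 rpbp) and the cDNA AK149509 (5.2 and 8.4 rpbp against 0.4 and 0.1 rpbp) had log2 differences of 2.67 and 2.62. Serpina6, which encodes the corticosteroid-binding globulin of plasma, had 25.8 and 36.5 rpbp at ZT8 and 6.7 and 6.7 rpbp at ZT20 (4.65-fold, adjusted p = 0.0176). Gde5 and Prei4, overlapping symbols of 1 choline-lipid phosphodiesterase locus, had log2 differences of 1.90 and 1.93, and the monocarboxylate transporter gene Slc16a7 gave 8.5 and 7.6 rpbp against 1.6 and 1.7 rpbp (1.77, adjusted p = 0.0176).

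Genes of PPAR alpha and fatty acid oxidation were called only toward ZT8. Of 25 tested members, 3 were called higher at ZT8 and 0 higher at ZT20, and 7 were more than 2-fold higher at ZT8 without overlap against 0 higher at ZT20. Over all tested symbols 0.524% were called higher at ZT8 and 1.24% higher at ZT20, with 2.25% and 3.6% by the 2-fold rule. At the shares toward ZT20, a count of 0 among 25 genes does not by itself show a one-sided list. The median log2 difference of the list was 0.41, beside 0.01 for all tested symbols. Vnn1, a pantetheinase and known PPAR alpha target, gave 7.4 and 9.9 rpbp at ZT8 and 1.0 and 1.4 rpbp at ZT20 (7.21-fold, adjusted p = 0.0153). The acyl-CoA thioesterases Acot3 and Acot4 are neighbours on chr12, with the called cDNA AK132490 overlapping both. Acot3 gave 5.1 and 6.1 rpbp and 0.6 and 0.7 rpbp (8.62-fold, adjusted p = 0.0127), and Acot4 gave 27.1 and 17.8 rpbp and 4.5 and 6.9 rpbp (3.94-fold, adjusted p = 0.0453, and 0.0583 with the GC trend removed). Reads from these overlapping symbols cannot be assigned to 1 gene from the table. Ppara itself (101.9 and 79.4 rpbp, then 39.2 and 44.8 rpbp) and Cpt1a, the gate to mitochondrial oxidation (37.2 and 30.6 rpbp, then 15.0 and 16.2 rpbp), named after their values were seen, did not overlap between the groups but had adjusted p-values of 0.103 and 0.0916.

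Of 32 tested genes of xenobiotic receptors, P450 enzymes and heme supply, 3 were called higher at ZT8 and 1 higher at ZT20. Cyp2e1 (chr7:147949731-147960876), the ethanol-oxidising P450, gave 255.2 and 322.3 rpbp at ZT8 and 87.8 and 101.8 rpbp at ZT20 (3.05-fold, adjusted p = 0.033). Cyp2a5, a coumarin hydroxylase, gave 11.5 and 5.4 rpbp and 1.1 and 0.8 rpbp (8.89-fold, adjusted p = 0.037, and 0.0626 with the GC trend removed). Por was the other member called in this direction. The glutathione transferase gene Gstm1 went the other way, from 3.3 and 3.1 rpbp at ZT8 to 14.0 and 13.9 rpbp at ZT20 (4.36-fold, adjusted p = 0.0153). Cyp2e1 is also a marker of hepatocytes near the central vein. The summed signal of the 12 pericentral markers was 439.5 and 458.9 rpbp at ZT8 against 243.8 and 277.4 rpbp at ZT20. Cyp2e1 itself, with 255.2 and 322.3 rpbp, made up most of the sum at ZT8, so the sum largely restates that gene. Of 8 tested pericentral markers, 1 was called (Cyp2e1). Fewer cells of a type and less RNA per cell cannot be told apart in whole liver, and the part of these markers in the P450 result was not tested.

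On the log2(rpbp + 1) scale the largest difference of all called symbols was that of Elovl3 (chr19:46206389-46210184, plus strand), an elongase of very long chain fatty acids. It had 6.7 and 8.7 rpbp at ZT8 and 193.1 and 331.2 rpbp at ZT20, 34-fold higher at ZT20 (log2 difference −4.88, SE 0.32, adjusted p = 0.00494). The homeobox gene Pitx3 on the opposite strand overlaps its 3′ end (chr19:46210176-46222815) and had 1.5 and 2.5 rpbp at ZT8 and 57.4 and 122.4 rpbp at ZT20 (−4.84, adjusted p = 0.00494). The intervals overlap only at their ends, and the table ignores strand. The study reports that nascent signal often extends past the 3′ end of a gene. Whether the signal given to Pitx3 is its own or that of Elovl3 cannot be told from these values and was not tested. Elovl3 was the exception in its list: of 22 tested genes of fatty acid and triglyceride synthesis, it was the only one called, and the median log2 difference of the list was 0.01. With all libraries, 1 member of this list was more than 2-fold higher at ZT20 without overlap and 2 were more than 2-fold higher at ZT8. At an unadjusted limma p under 0.05 stood 3 members higher at ZT8 and 1 higher at ZT20. Without ZT8 replicate 2, an alternative chosen after seeing the data, the 2-fold counts became 6 higher at ZT20 and 0 higher at ZT8. Over all tested symbols they went from 192 to 224 higher at ZT20 and from 120 to 175 higher at ZT8.

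Other large differences toward ZT20 came from several kinds of genes. Clic3, an intracellular chloride channel gene, gave 4.5 and 2.9 rpbp at ZT8 and 64.6 and 44.9 rpbp at ZT20 (14.8-fold, adjusted p = 0.00494), and BC029214, on the opposite strand 715 bases away, gave 3.3 and 3.1 rpbp and 65.4 and 42.9 rpbp (16.9-fold, adjusted p = 0.00494). With strands pooled, these values do not show whether the signals of the 2 neighbours are separate. Chka, choline kinase alpha, which starts phosphatidylcholine synthesis, gave 5.9 and 6.5 rpbp and 97.7 and 60.5 rpbp (12.8-fold, adjusted p = 0.00494). Clpx, a subunit of a mitochondrial matrix protease, gave 6.8 and 9.8 rpbp and 66.2 and 58.3 rpbp (7.5-fold, adjusted p = 0.00584). In all of these both ZT20 values were several times both ZT8 values. G6pc2, a homologue of the glucose-6-phosphatase gene, gave 1.3 and 1.7 rpbp and 17.7 and 15.3 rpbp (11-fold, adjusted p = 0.00494), and DQ284430, a cDNA with no gene name in the table, gave 0.7 and 0.2 rpbp and 5.8 and 20 rpbp (log2 difference −3.06, adjusted p = 0.0451). DQ284430 had the widest spread of the 15 largest calls toward ZT20, with an SE of 0.52.

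Amino acid breakdown was the list with the most called genes higher at ZT20. Of 30 tested genes of amino acid breakdown and the urea cycle, 5 were called higher at ZT20 and 0 higher at ZT8, 10 were more than 2-fold higher at ZT20 without overlap and 0 more than 2-fold higher at ZT8, and the median log2 difference of the list was −0.42. Over all tested symbols 1.24% were called higher at ZT20 and 0.524% higher at ZT8, with 3.6% and 2.25% by the 2-fold rule. The counts of 10 and 0 in the list were the same without ZT8 replicate 2, and 8 members were called with the GC trend removed. All 5 called enzymes act on glycine, its relative glyoxylate, or the sulfur amino acids. Agxt (chr1:95031853-95041998), which turns glyoxylate into glycine, gave 3.9 and 2.6 rpbp at ZT8 and 31.5 and 28.0 rpbp at ZT20 (9.15-fold, log2 difference −2.87, SE 0.25, adjusted p = 0.00494). Gldc (chr19:30172937-30249908), the decarboxylase of the glycine cleavage system, gave 4.2 and 4.6 rpbp and 35.0 and 31.9 rpbp (7.6-fold, −2.67, SE 0.22, adjusted p = 0.00494). In both, replicates of a time point differed by far less than ZT8 and ZT20 did. Outside these points the order was mixed. The highest time-point mean of Agxt and of Cbs was at ZT4, in the light, but ZT4 exceeded ZT20 in replicate 2 alone. At ZT4 Agxt gave 15.9 and 44.9 rpbp and Cbs 52.4 and 94.4 rpbp. In the other 8 libraries, the mean of ZT4 and ZT12 minus that of ZT16 and ZT0 was 0.41 (log2) for Agxt, 0.48 for Gldc and 0.91 for Cth. It was −0.14 for Bhmt and −0.05 for Cbs. The replicates of Cth at ZT12 lay far apart, at 85.5 and 26 rpbp.

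Bhmt, Cbs and Cth share homocysteine as a branch point: Bhmt methylates it back to methionine, Cbs condenses it with serine and Cth releases cysteine from the product. Bhmt (chr13:94386846-94407713) gave 13.7 and 13.3 rpbp at ZT8 and 86.3 and 83.9 rpbp at ZT20 (6.3-fold, log2 difference −2.57, SE 0.22, adjusted p = 0.00494). Cbs (chr17:31749589-31774086) gave 13.3 and 9.7 rpbp and 74.2 and 65.3 rpbp (6.07-fold, −2.51, SE 0.25, adjusted p = 0.00722). Cth, named after its values were seen, gave 14.0 and 16.6 rpbp and 84.6 and 82.8 rpbp (5.47-fold, −2.38, adjusted p = 0.00584). The symbols AK016283 and BHMT overlap Bhmt and were called as well, so the 3 symbols are 1 locus. Csad, which makes the taurine precursor from cysteine and belongs to no list here, gave 1.9 and 1.2 rpbp and 11.6 and 24.4 rpbp (11.6-fold, adjusted p = 0.0223, and 0.0553 with the GC trend removed).

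Other genes of the same pathway did not pass the test. Mat1a, which makes S-adenosylmethionine, gave 177.7 and 188.9 rpbp at ZT8 and 141.4 and 191.5 rpbp at ZT20 (adjusted p = 0.921), and Gnmt, which consumes it, gave 75.0 and 62.4 rpbp and 239.6 and 161.8 rpbp without overlap (adjusted p = 0.0554). Of the urea cycle enzymes, Cps1 (109.3 and 212.3 rpbp, then 275.3 and 366.0 rpbp) and Ass1 (31.5 and 19.9 rpbp, then 114.3 and 51.5 rpbp) did not overlap either, with adjusted p-values of 0.255 and 0.148, while Otc (19.2 and 28.6 rpbp, then 21.9 and 30.7 rpbp) overlapped. These genes were named after their values were seen, except Ass1. The periportal hepatocyte markers, which share Ass1, Cps1, Arg1, Asl, Hal and Gls2 with this list, summed to 530.4 and 609.1 rpbp at ZT8 and 1014.9 and 1360.5 rpbp at ZT20. Of 12 tested periportal markers, limma called 0, and 7 had an unadjusted p under 0.05 with a higher signal at ZT20 and 1 with a higher signal at ZT8. Their part in the amino acid result was not tested.

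**Figure D3:**
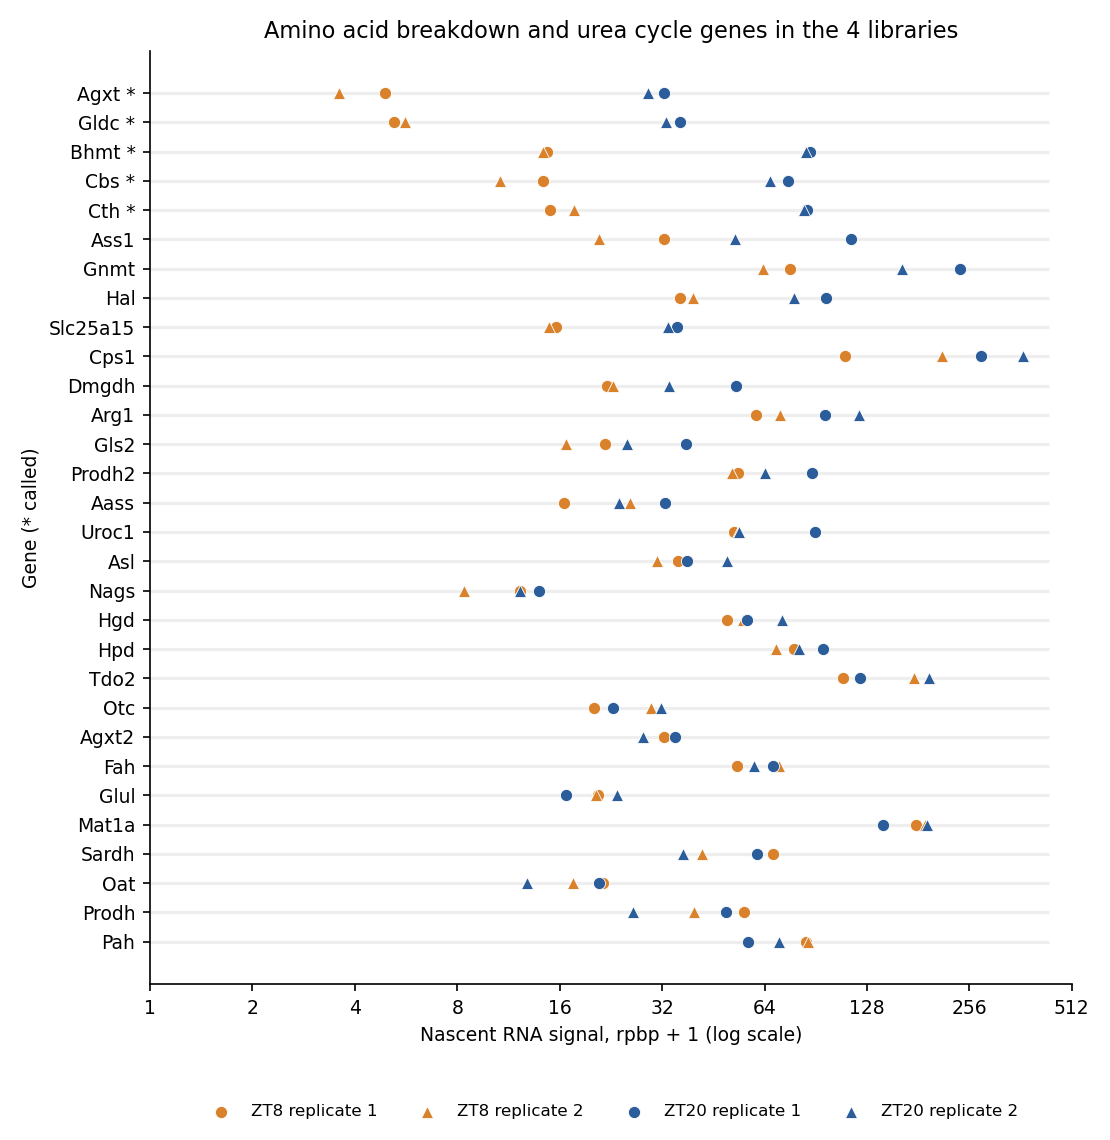
Signal of the 30 tested genes of amino acid breakdown and the urea cycle in the 4 libraries (x axis, rpbp + 1 on a log scale; orange ZT8, blue ZT20; circles replicate 1, triangles replicate 2; * called), ordered by log2 difference. The 5 called genes Agxt, Gldc, Bhmt, Cbs and Cth stand at the top with ZT8 points far to the left of ZT20 points, and toward the bottom the groups mix, as for Mat1a, Otc and Glul.

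Bile acid and sterol export genes went in opposite directions. Abcb11, the pump that exports bile salts into bile, gave 17.7 and 29.8 rpbp at ZT8 and 86.9 and 87.6 rpbp at ZT20 (3.67-fold, adjusted p = 0.0361). Abcg5, part of the sterol exporter, gave 33.8 and 29.0 rpbp and 10.7 and 11.9 rpbp, 2.78-fold higher at ZT8 (adjusted p = 0.0392). These were the 2 called genes among 20 tested in their list. Of 21 tested genes of cholesterol synthesis and uptake, limma called 0 (3 had an unadjusted p under 0.05, all higher at ZT20), with a median log2 difference of −0.67. In that list Insig2, a brake on SREBP processing, had 14.5 and 28.4 rpbp at ZT8 and 65.0 and 72.5 rpbp at ZT20 (adjusted p = 0.0721, and 0.0488 with the GC trend removed) and Pmvk had 0.7 and 1.5 rpbp and 6.9 and 2.3 rpbp (adjusted p = 0.248). The members more than 2-fold higher at ZT20 without overlap numbered 3 with all libraries and 7 without ZT8 replicate 2, and 0 were higher at ZT8 in either case. Over all tested symbols the count higher at ZT20 was 192 with all libraries and 224 without ZT8 replicate 2.

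Among 12 tested targets of the glucocorticoid receptor, 2 were called higher at ZT20 and 1, Serpina6, higher at ZT8. Tsc22d3, the gene of the steroid-induced protein GILZ, gave 8.3 and 10.1 rpbp at ZT8 and 27.0 and 37.6 rpbp at ZT20 (3.51-fold, adjusted p = 0.034, and 0.0556 with the GC trend removed), together with the overlapping symbol Tilz3b. Zbtb16, a zinc finger factor, gave 2.7 and 4.4 rpbp and 14.9 and 12.8 rpbp (3.9-fold, adjusted p = 0.036, and 0.0745 with the GC trend removed). For Zbtb16 the ZT20 level was itself low, since the libraries of ZT12 reached 105.1 and 79.2 rpbp.

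The solute carrier list held 2 called genes of 15 tested, both higher at ZT20: Slc45a3 (4.9 and 5.2 rpbp, then 20.6 and 15.5 rpbp, adjusted p = 0.0289) and the manganese exporter gene Slc30a10 (4.2 and 5.0 rpbp, then 16.4 and 12.7 rpbp, adjusted p = 0.0412). In the acute phase list 1 of 18 tested genes was called, Lbp, the lipopolysaccharide-binding protein gene, with 2.8 and 2.6 rpbp at ZT8 and 8.4 and 8.6 rpbp at ZT20 (3.15-fold, adjusted p = 0.0376).

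Among genes of glucose metabolism limma called none, beside 1.76% of all tested symbols. At that share lists of this size hold few calls or none, so the lack of calls does not set them apart. Of 19 tested genes of gluconeogenesis and fasting signals 0 were called, with 2 at an unadjusted p under 0.05 higher at ZT8 and 3 higher at ZT20. Tat, tyrosine aminotransferase, had 86.5 and 169.2 rpbp at ZT8 and 363.4 and 409.2 rpbp at ZT20 (adjusted p = 0.0836), Pck1 had 142.6 and 137.5 rpbp and 232.6 and 566.3 rpbp (adjusted p = 0.205), and Txnip, a glucose-responsive thioredoxin inhibitor, had 25.4 and 64.8 rpbp and 5.4 and 10.3 rpbp (adjusted p = 0.0853). In each the groups did not overlap, and a pair of replicates differed by more than 1.5-fold. Of 16 tested genes of glucose use and glycogen 0 were called, with 3 at an unadjusted p under 0.05 in each direction. Gys2, liver glycogen synthase, had 45.2 and 29.3 rpbp at ZT8 and 9.0 and 12.6 rpbp at ZT20 (adjusted p = 0.0524), and Pklr, liver pyruvate kinase, had 39.4 and 109.9 rpbp and 23.3 and 13.8 rpbp (adjusted p = 0.159).

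Over all tested symbols limma called 1.76%, a share at which short lists hold few calls or none. A lack of calls therefore does not set apart the remaining lists, in which limma called 0 genes. These were the growth hormone and IGF axis (10 tested, with 1 at an unadjusted p under 0.05 higher at ZT8 and 2 higher at ZT20), immediate early genes (7 tested, 2 and 1), heat shock and chaperones (13 tested, 0 and 3), the unfolded protein response (19 tested, 0 and 2), autophagy (13 tested, 1 and 0), liver-enriched transcription factors (17 tested, 2 and 1), coactivators and Kruppel-like factors (14 tested, 1 and 0), ribosome biogenesis (4 tested, 0 and 0), and the 1 tested gene each of the cold-inducible and cell cycle lists (0 in both directions). The chaperone gene Hsp90ab1 had 11.4 and 14.2 rpbp at ZT8 and 26.4 and 29.8 rpbp at ZT20 without overlap (adjusted p = 0.0941). Junb, an immediate early factor, had 22.7 and 12.2 rpbp and 4.7 and 5.3 rpbp (adjusted p = 0.0798, and 0.0488 with the GC trend removed), and the phosphatase gene Dusp1 had 16.9 and 43.9 rpbp and 65.2 and 88.1 rpbp (adjusted p = 0.21). For Igf1 (16.8 and 54.4 rpbp, then 6.8 and 21.5 rpbp, adjusted p = 0.536) and Onecut1 (2.3 and 18.8 rpbp, then 2.7 and 3.6 rpbp, adjusted p = 0.74) the spread within a time point was as wide as that between them. At the steady end stood Mdm2, with 8.9 and 9.0 rpbp at ZT8 and 8.8 and 8.5 rpbp at ZT20.

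**Figure D4:**
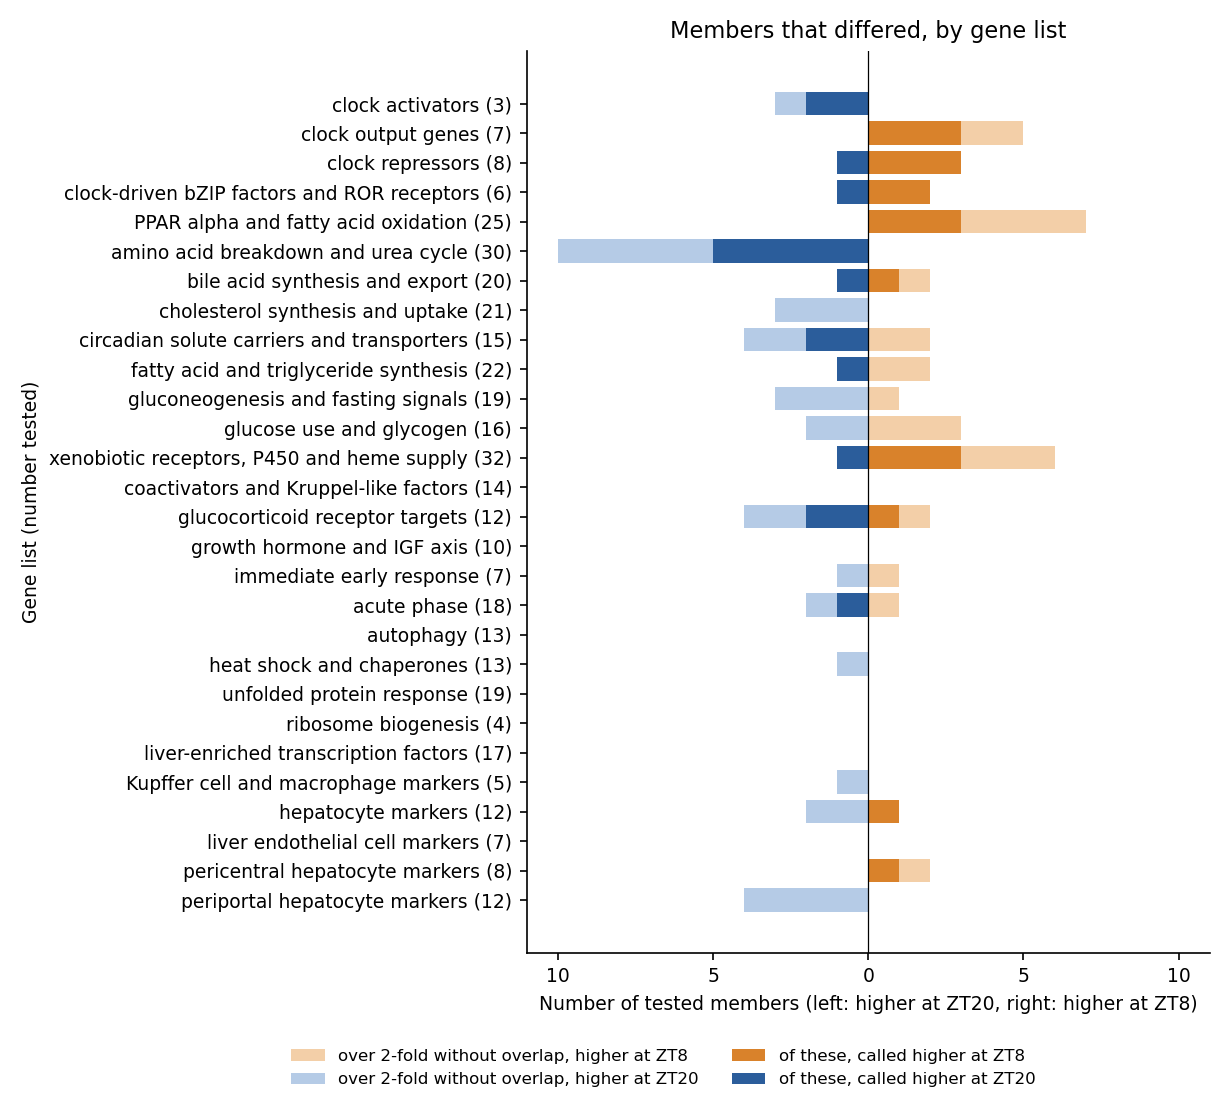
Number of tested members (x axis) that were called (dark bars) or more than 2-fold apart without overlap (pale bars) in each gene list with 3 or more tested members, to the right where higher at ZT8 and to the left where higher at ZT20. The clock output and PPAR alpha lists extend to the right alone, with 5 and 7 members over 2-fold, and the amino acid list to the left alone, with 10.

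Markers of hepatocytes were abundant in all 4 libraries, with the 12 genes of that list summing to between 1674.7 and 2736 rpbp. All 12 were tested: 1 was called (Cyp2e1, higher at ZT8), 1 had an unadjusted p under 0.05 higher at ZT8 (the same gene) and 4 higher at ZT20, and the median log2 difference was −0.38. The markers of macrophages summed to 90.6 rpbp in ZT8 replicate 1 and 29.5 to 43.2 rpbp in the 3 other libraries, and 0 of 5 tested were called. Marco, a scavenger receptor of macrophages, had 20.5 rpbp in ZT8 replicate 1 and 0.1 rpbp in ZT8 replicate 2, against 0.5 and 0.4 rpbp at ZT20, whereas Clec4f, a marker of Kupffer cells, had 1.6 and 6.5 rpbp against 11.3 and 11.8 rpbp. Endothelial markers summed to 66.5 to 109.1 rpbp (0 of 7 tested called), stellate cell markers to 16.8 to 23.9 rpbp and cholangiocyte markers to 2.7 to 3.9 rpbp (0 tested in both). Lymphocyte markers summed to 14.4 rpbp in ZT8 replicate 1 and 3.5 to 5.1 rpbp elsewhere. For these lists at an unadjusted p under 0.05 stood 1 macrophage marker, higher at ZT20, and 0 endothelial markers. Erythroid markers summed to 12.3 to 17.9 rpbp, and Alas2, the only one tested, had 14.4 and 10.6 rpbp at ZT8 and 13.3 and 11.8 rpbp at ZT20.

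Several calls were not independent of each other. Of the 94 called symbols, 30 symbols overlapped another symbol called in the same direction and 2 more, Clic3 and BC029214, lay within 5 kb of each other. They included Arntl with A630005I04Rik and bmal1b, Ddc with AK006690, Hectd2 with AK142254 and AK005275, Bmp1 with mKIAA4159, Nedd4l with mKIAA0439, AK076845 with Slc16a7, AK168860 with AK016444, and the long noncoding BC028777 with AK017296. At such loci the values ran in parallel, as for A630005I04Rik (1.4 and 0.9 rpbp at ZT8, then 22.3 and 17.6 rpbp) beside Arntl. Of all called symbols, 72 matched a protein-coding gene, 1 a long noncoding gene and 21 no gene of that name in GENCODE M1. For 27 called symbols the highest of the 4 values was under 12 rpbp.

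The 8 libraries of the other time points, which the test did not use and which had 1 lane each, were set beside the calls. The mean of ZT4 and ZT12, the neighbours of ZT8, minus the mean of ZT16 and ZT0, the neighbours of ZT20, had the same sign as the called difference for 24 of the 28 symbols called higher at ZT8 (85.7%, median 1.08). Among all 2757 tested symbols with a higher mean at ZT8 it had that sign for 73.8%, with a median of 0.14. For symbols called higher at ZT20 the sign was the same for 49 of 66 (74.2%, median −0.24), beside 34.7% of the 2582 tested symbols with a higher mean at ZT20. Over all tested symbols this difference had a median of 0.12, so the levels were not centred. After the libraries were rescaled to equal medians the counts were 24 of 28 and 51 of 66, and the shares over all tested symbols became 55.0% in both directions. These are descriptions over genes, which are not replicates, with no test.

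Called genes higher at ZT8 were mostly at their peak there, and called genes higher at ZT20 were mostly at their trough at ZT8. Of the 28, the highest time-point mean was at ZT8 for 23, at ZT12 for 4 and at ZT4 for 1. Of the 66, the lowest mean was at ZT8 for 54, while the highest was at ZT20 for 39, at ZT0 for 17, at ZT4 and ZT12 for 4 each and at ZT16 for 2. In 35 of the 66 both ZT8 values lay below all 10 other libraries, as they did for 5.39% of all tested symbols, and in 22 both ZT20 values lay above all 10 others (2.12% of all tested). In 17 of the 28 both ZT8 values lay above all 10 (5.39% of all tested). Since the calls used the ZT8 and ZT20 values, these positions describe the called symbols and test nothing.

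Single genes show the shapes behind these counts. Nr1d1 was as high at ZT4 (37.6 and 30.6 rpbp) as at ZT8, and Per3 as high at ZT12 (22.4 and 22.6 rpbp). Inmt was highest at ZT8 and had fallen to 26.2 and 24.7 rpbp at ZT12. Cry1 had 2.6 to 6.2 rpbp in the 8 other libraries, between its ZT8 and ZT20 levels. Nfil3 had 7.6 to 15.3 rpbp in the other 8 libraries, so ZT8 stood apart and ZT20 did not. Gldc with 9.6 to 32.6 rpbp and Cbs with 38.8 to 94.4 rpbp in the other 8 showed the same pattern of a single low point at ZT8. Elovl3 replicates at ZT12 gave 85.6 and 3.8 rpbp. Tsc22d3 was high at ZT12 (26.4 and 36.3 rpbp) as well as at ZT20, with 5.6 and 14.3 rpbp at ZT16 between them.

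**Figure D5:**
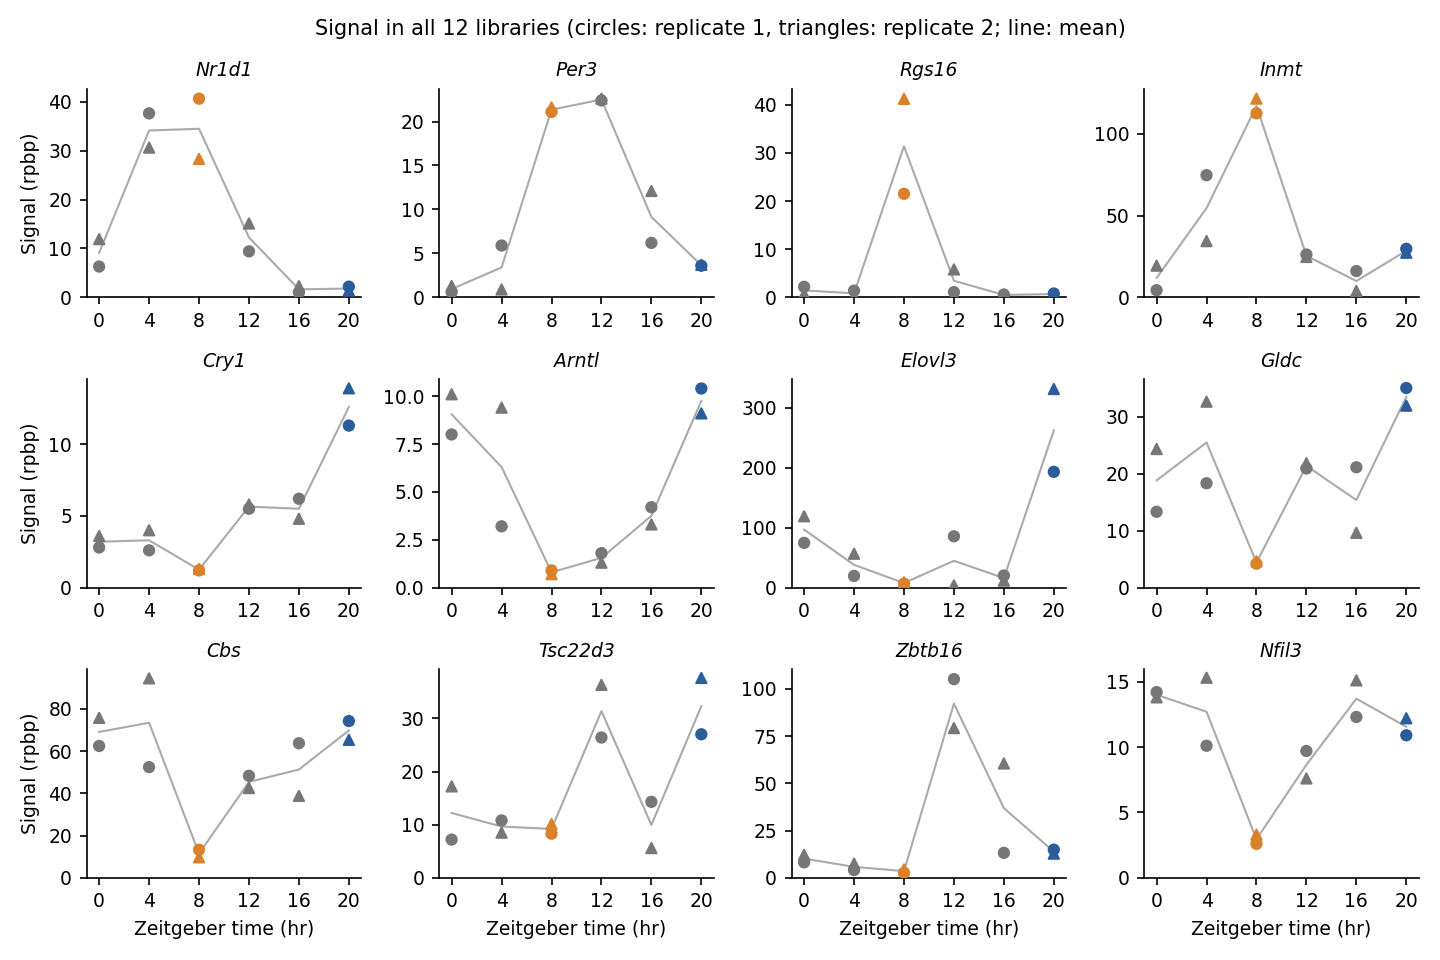
Signal in rpbp (y axis, starting at 0) of 12 named genes in all 12 libraries against zeitgeber time in hr (x axis), with ZT8 in orange, ZT20 in blue and the other time points in grey; circles are replicate 1, triangles replicate 2 and the line joins the means of 2 replicates. Gldc, Cbs and Nfil3 show a single low point at ZT8, Cry1 and Elovl3 a high point at ZT20, and Rgs16 a high point at ZT8.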

How the data were processed

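Livers were sampled at 6 time points with 2 replicates each, and groups and replicate numbers came from the labels. Per the labels and methods, the authors aligned reads to mm9 with TopHat after base calling with CASAVA 1.7, kept uniquely mapped reads, took the read coverage of all exons of a symbol per base of exon, merged the lanes and scaled libraries to equal read numbers. The deposited signal is therefore a normalized coverage in rpbp, rounded to 1 decimal. It holds no read numbers, so no count model was fitted and depth sets no interval here. The table's rhythm score (F24), phase and p-value columns are the authors' own results and were not used. Blank lines (27919) were dropped.

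The difference was tested with limma 3.58.1 in R 4.3.3 (moderated t-statistic, 4 libraries, no block), on log2(rpbp + 1), for symbols over 6 rpbp in at least 1 of the 4, with Benjamini-Hochberg adjustment at 0.05. The procedure was also run on simulated data with equal spread in both groups and no GC trend. These libraries differ from that in both respects, so the run does not cover them. The study treats the 12 libraries as independent samples, the labels name no animals, and p-values measure only the spread between these samples. GC content was read from NCBIM37 (mm9) and GENCODE M1 exons with pysam 0.24.0 and its trend taken in 20 bins. Alternatives changed the pseudocount, threshold, scaling, GC trend, variance prior, libraries, loci and block. Named genes are the tested clock list members, the 15 largest calls in each direction at 1 symbol per locus, up to 4 called members of each other list (2 with the largest difference where none was called), and called neighbours within 5 kb. A few genes it picks are not reported here. Members, lists and tests were chosen with earlier results of these data known.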

Additional observations from a re-analysis of the deposited data

How the results depend on the processing

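Direction was kept by all 65 named genes that were called, under each of the 16 other settings in which they could be fitted. Most of these settings could not have reversed a direction, because a call already required both ZT8 values on the same side of both ZT20 values. The count of calls was within 1.5 times 94 with 0.1 or 4 added, a limit of 3 or 12 rpbp, rescaling, GC removal, a trended prior, all 12 libraries or 1 symbol per locus, except that 18 symbols were called higher at ZT8 at 12 rpbp. Of the 94, the same symbols called again numbered 74 after GC removal, 84 after rescaling and 69 with all 12 libraries. Without a filter on low values limma called 0 symbols in either direction and 0 clock genes (1733 at an unadjusted p under 0.05), over 19527 symbols. At an adjusted p under 0.1 there were 180 calls, 61 higher at ZT8 and 119 higher at ZT20. Leaving out 1 library gave 0 to 34 calls, 0 to 7 higher at ZT8, 0 to 29 higher at ZT20 and 0 to 6 clock genes, with 1 degree of freedom in the fit and the lone library assumed to vary like the other group. With 4 added, 171 symbols were more than 2-fold apart without overlap, in place of 312, since a larger pseudocount shrinks each difference, and 399 without ZT8 replicate 2. The replicate numbers are shared between time points but no source ties them to 1 animal or day. The correlation of replicate deviations was 0.33 between ZT8 and ZT20 and −0.14 to 0.33 over the 15 pairs of time points. A replicate block gave 198 calls, 69 higher at ZT8 and 129 higher at ZT20, and with the GC trend also removed 35, 12 and 23. The cause of these shifts was not tested. Named genes that changed direction were all outside the calls. As 1 library at a time was left out, the log2 difference ranged from −0.15 to 0.41 for Per1, −0.64 to 0.011 for Per2, −0.30 to 0.21 for Cry2, −0.35 to 0.34 for Bhlhb2, −0.32 to 2.26 for Onecut1, −0.053 to 0.88 for Utp20, −0.40 to 3.89 for Marco and −0.22 to 0.19 for Alas2. Bhlhb2 was at 0.0075 after rescaling, and Alas2 at 0.035 after GC removal, with and without the replicate block. With 2 libraries per time point, the number of replicates limits every call.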
